A study of Arabidopsis thaliana with 36 samples.

Results

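Rosettes of Arabidopsis thaliana Col-0 were compared 1 h after exposure to 100 cGy or to 10 cGy of gamma rays, so that what both doses share drops out and what differs between them is left. The 3 libraries of the 100 cGy group were set against the 3 libraries of the 10 cGy group, 6 of 36 libraries in all, and the 3 mock libraries of the same time served for orientation. The plants were wild type, had grown for 4 weeks in soil in short days, and were placed in a 137Cs irradiator; mock plants received 0 cGy. Poly(A) RNA of whole rosettes was sequenced from directional libraries. How mock plants were handled, and whether the replicates came from separate plants or separate exposures, is not given in the labels. Every p-value rests on the scatter among libraries of a group, estimated over all 36 libraries, and this scatter may be technical. Levels are counts-per-million values (CPM), and all genes with at least 1 CPM in at least 3 of the 36 libraries are described, which are 18875 of 33977 genes in the table.

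In plants, breaks in DNA are sensed by the kinases ATM and ATR, which phosphorylate the transcription factor SOG1. SOG1 then switches on genes for repair by homologous recombination, for nucleotide supply and for arrest of the cell cycle, many of which are used as sentinels of ionising radiation. SOG1 itself is regulated mainly through phosphorylation, so its transcript is not a readout of its activity. Heat shock factors switch on chaperones, which keep other proteins folded. Transporters of zinc are switched on when zinc is short, and plants that are short of copper replace the copper enzymes of superoxide removal with an iron enzyme.

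Depth at 1 h, read from the step between CPM values, was about 27600000 to 31300000 counts in 100 cGy libraries, 26600000 to 29300000 in 10 cGy libraries and 28500000 to 33300000 in mock libraries, so that 3 counts stood for 0.0902 to 0.113 CPM. Such floors cover counting error only. Replicates of each of the 1 h groups had pairwise correlations of 0.990 or more. In a principal component analysis of the 9 libraries of 1 h, the first component held 43.6% of the variance and it set the 3 mock libraries (26.12 to 34.30) apart from the 3 libraries of 100 cGy (-18.08 to -3.79) and the 3 of 10 cGy (-24.46 to -16.45), whose ranges overlapped. Replicate 3 of 100 cGy had the highest shares at 1 h from chloroplast genes (0.312%) and from genes with ENSRNA identifiers (0.335%). Rosette marker genes (RBCS1A, RCA, LHCB1.3, PSBO1) summed to 53131.7 to 56691.5 CPM at 100 cGy, 54277.5 to 55781.3 CPM at 10 cGy and 55100.9 to 56362.7 CPM in mock plants, and all 7 flower and seed markers averaged under 1 CPM. In whole rosettes, fewer cells of a type and less RNA per cell cannot be told apart.

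The doses differed in 137 genes at an adjusted p under 0.05 (limma, Benjamini-Hochberg over all tested genes), which is 0.726% of the genes tested. Of these 60 were higher at 100 cGy (0.318% of genes tested) and 77 were lower (0.408%). Most of the differences were small: the median size was 0.43 on the log2 scale for the 60 and 0.62 for the 77, and 8 and 12 of them reached 2-fold, on a scale of log2(CPM + 0.5) that understates the change of weakly expressed genes. The median difference over all tested genes was 0.01. In all 137 genes the 3 libraries at 100 cGy lay entirely above or entirely below those at 10 cGy. Over all genes, 9.64% lay entirely above and 7.26% entirely below. Such separation follows largely from calling genes on these same 6 libraries, so it gives the calls no support of its own. The calls depend on the libraries: 55 of the 137 (22 higher, 33 lower) held without any 1 of the 6 libraries, and the count was 70 without 100 cGy replicate 2 and 75 without 10 cGy replicate 2. After rescaling of the libraries by median ratios 134 genes were called, 46 higher and 88 lower, so that the higher share was 34.3% in place of 43.8%. SMR7 and PP2-B13 passed the filter on low values only through the 3 libraries in which they were high, and PCK2 through those and 1 other library.

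**Figure D1:**
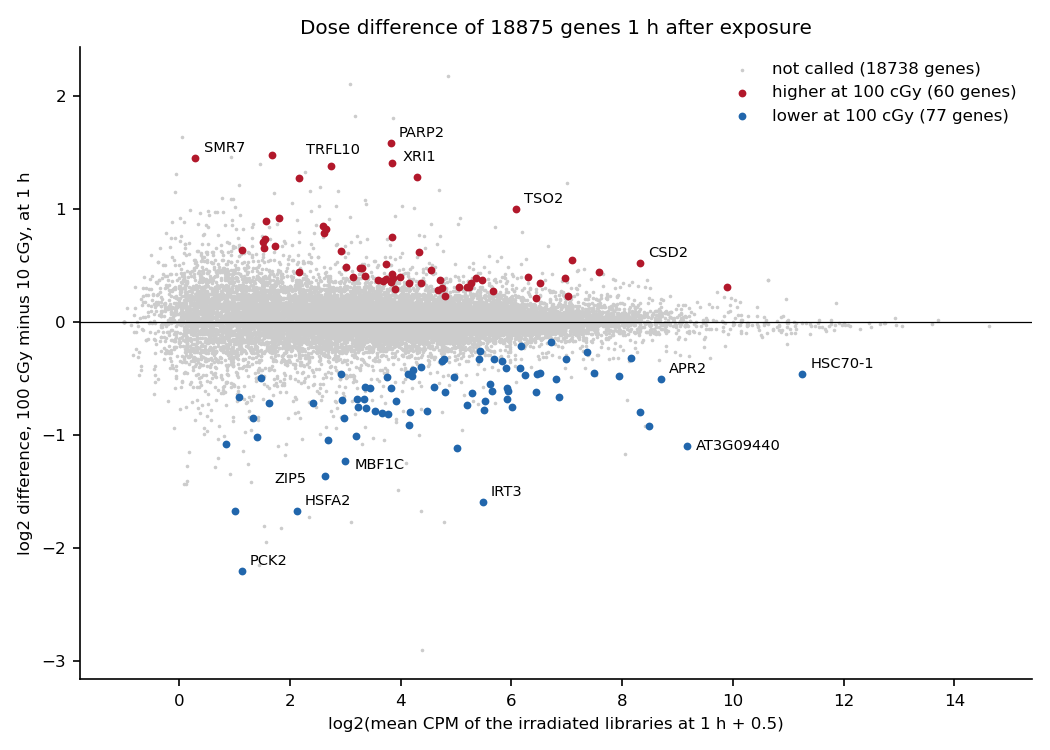
Each point is 1 of 18875 genes, with log2 of its mean CPM (plus 0.5) in the 6 irradiated libraries at 1 h across and its log2 difference, 100 cGy minus 10 cGy, up. Red points are the 60 genes higher and blue points the 77 genes lower at 100 cGy (adjusted p under 0.05, limma); PARP2 and XRI1 lie at the top and IRT3, HSFA2 and PCK2 at the bottom.

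DNA damage response genes were the group with the most genes higher at 100 cGy. Of 29 listed targets 23 were tested, 13 were higher at 100 cGy and 0 lower. That is 56.5% higher, against 0.318% of all tested genes. The median log2 difference was 0.65, with 21 of 23 above zero. The list was chosen with earlier results of these data known, so its count is a description. The 6 members below the filter were SMR4, SMR5, NAC044, NAC085, NAC103 and AT4G22960.

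Among the sensors of broken DNA, PARP2 (AT4G02390), a poly(ADP-ribose) polymerase that binds strand breaks, had 21.1, 20.4 and 20.2 CPM at 100 cGy, against 7.06, 7.53 and 5.28 CPM at 10 cGy and 5.96, 5.83 and 5.51 CPM in mock plants. The 100 cGy libraries stood far above all others, and the 10 cGy libraries overlapped mock. The log2 difference between the doses was 1.58 (SE 0.12, limma adjusted p = 1.74e-09). Its relative PARP1 (AT2G31320) had 17.6, 16.6 and 18.1 CPM at 100 cGy, against 9.86, 10.5 and 10.1 CPM at 10 cGy and 12.1, 12.2 and 10.8 CPM in mock plants (0.75, SE 0.07, adjusted p = 6.48e-08, limma). RAD17, a subunit of the loader of the checkpoint clamp, averaged 7.31 ± 1.02 CPM at 100 cGy and 4.01 ± 0.261 CPM at 10 cGy (SD, n = 3 libraries each; 0.79, limma adjusted p = 0.00148). The kinase genes ATM (0.09) and ATR (0.23) and the regulator gene SOG1 (0.06) were not called, and SOG1 had 9.97, 10.4 and 12.1 CPM at 100 cGy against 11.3, 8.66 and 11.1 CPM at 10 cGy, groups that overlap. None of the 12 tested genes for the checkpoint and break sensing was called, with a median of 0.12 and a highest difference of 0.23 in ATR.

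Some genes of homologous recombination were higher at 100 cGy, and others of the list were not called. BRCA1, a ubiquitin ligase of the pathway, had 7.92, 6.84 and 6.99 CPM at 100 cGy, against 4.27, 3.54 and 3.63 CPM at 10 cGy and 4.96, 4.57 and 4.35 CPM in mock plants (0.85, SE 0.12, limma adjusted p = 5.94e-05). Its lowest 100 cGy library was above every library of 10 cGy and mock. GMI1, an SMC-related protein of recombination in somatic cells, differed from BRCA1 in its mock level: it had 4.89, 3.51 and 3.74 CPM at 100 cGy, 1.47, 2.33 and 1.92 CPM at 10 cGy and 3.06, 2.71 and 3.47 CPM in mock plants. The mock libraries of GMI1 lay between the doses and nearer to 100 cGy, and the dose difference was 0.92 (SE 0.17, limma adjusted p = 0.00243). XRI1, named as an X-ray induced transcript, had 22, 20.5 and 18.8 CPM at 100 cGy, against 6.55, 7.38 and 8.19 CPM at 10 cGy and 5.93, 5.8 and 5.27 CPM in mock plants (1.41, SE 0.09, limma adjusted p = 8.12e-11). Here the 3 groups did not overlap, with 10 cGy between 100 cGy and mock. RPA1E, a subunit that coats single-stranded DNA, was higher by 0.89 and the cohesin subunit gene SYN2 by 0.65. The gene AT1G51130, annotated as an Nse4 component of the Smc5/6 repair complex, was higher by 0.73. The call of RPA1E ended without 100 cGy replicate 2 or 10 cGy replicate 1 (highest adjusted p = 0.054, limma), and that of SYN2 ended without 1 of the 6 libraries. BARD1, whose protein pairs with that of BRCA1, averaged 6.32 CPM at 100 cGy, 6.53 CPM at 10 cGy and 7.9 CPM in mock plants (-0.04, adjusted p = 0.955, limma). The recombination genes RAD54 (0.04) and MND1 (0.12) were not called. Of the other pathways of repair, 0 of 17 genes of end joining and excision repair and 0 of 10 further genes of the SMC5/6 complex and cohesin were called, with medians of -0.02 and 0.04.

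Of the genes for nucleotide supply and the cell cycle, 3 were higher at 100 cGy. TSO2, a small subunit of ribonucleotide reductase, had 96.7, 85.9 and 87.4 CPM at 100 cGy, against 46.3, 45.4 and 42.3 CPM at 10 cGy and 51, 52.3 and 45.8 CPM in mock plants (1.00, SE 0.09, limma adjusted p = 1.73e-08). The thymidine kinase gene TK1A had 25.4, 23.6 and 22.8 CPM at 100 cGy, against 15.8, 16.1 and 14.5 CPM at 10 cGy and 13.9, 12.3 and 12.8 CPM in mock plants (0.62, SE 0.07, limma adjusted p = 5.35e-06). The large reductase subunit gene RNR1 (0.28) and the second thymidine kinase gene TK1B (-0.14) were not called. SMR7, an inhibitor of cyclin-dependent kinases, was near the floor outside the 100 cGy group: it had 1.12, 1.59 and 1.16 CPM at 100 cGy, against 0.171, 0.113 and 0.171 CPM at 10 cGy and 0.182, 0.331 and 0.0702 CPM in mock plants. Its log2 difference of 1.45 (SE 0.18, limma adjusted p = 9.67e-06) understates the ratio of the means because of the 0.5 added. SMR7 passed the filter on low values only through its 3 libraries at 100 cGy, so its p-value and its place among the called genes depend on that. SMR5, a related inhibitor, was listed at 0 in 2 of 3 libraries at 100 cGy and in 2 of 3 at 10 cGy and reached at most 0.116 CPM. The mitotic cyclin gene CYCB1;1 (0.42, adjusted p = 0.347, limma) and the checkpoint kinase gene WEE1 (0.57, adjusted p = 0.141) were not called. Neither was any of 17 further CDK inhibitors, 15 genes of S phase (median 0.10) or 16 genes of G2 and mitosis (median 0.22, 13 of 16 above zero). The 5 meristem markers, whose CLV3 was at 0, summed to 7.31 to 9.84 CPM at 100 cGy, 2.97 to 7.79 CPM at 10 cGy and 7.19 to 8.45 CPM in mock plants; their part in these differences was not tested.

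**Figure D2:**
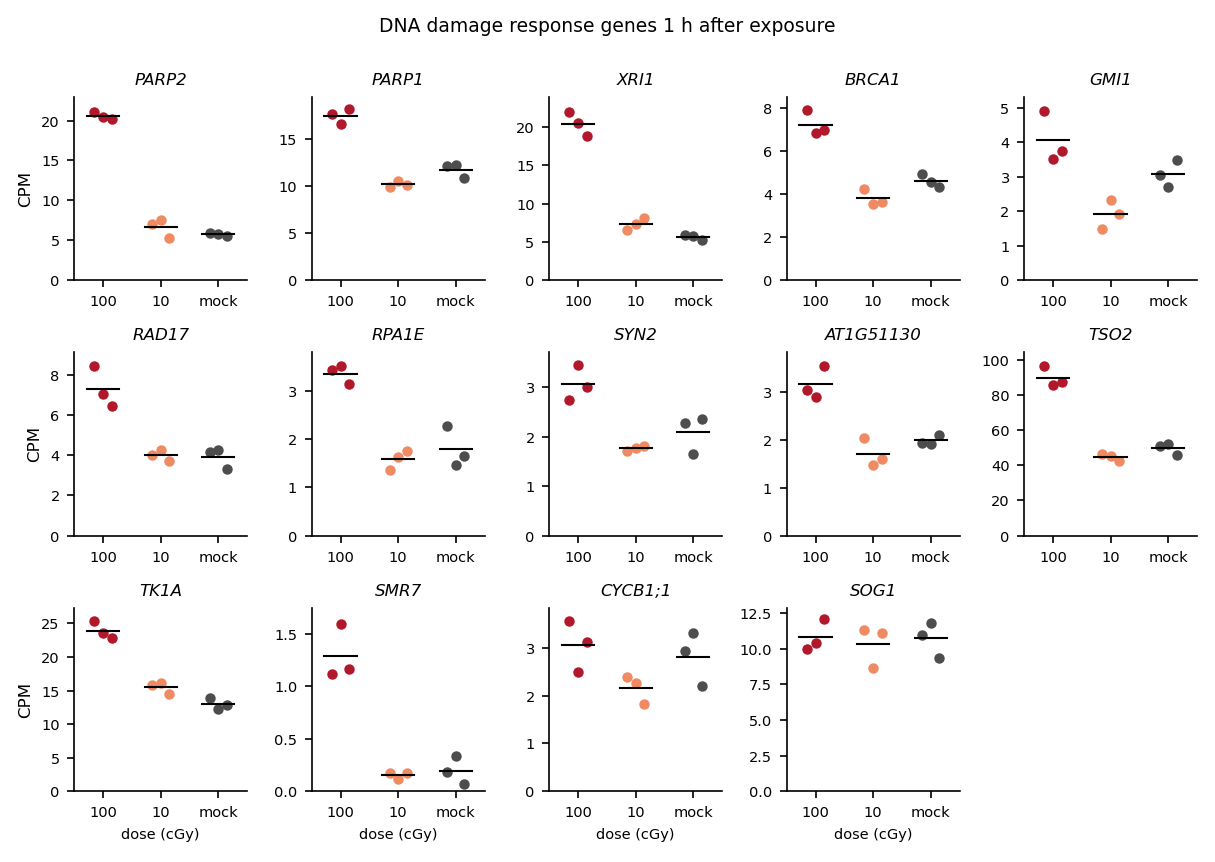
CPM of 14 DNA damage response genes in the 3 libraries of each group at 1 h, with 100 cGy in red at the left, 10 cGy in orange in the middle and mock in grey at the right, and a line at the group mean. The 100 cGy libraries lie above the 10 cGy libraries in 12 panels called by limma, and in CYCB1;1, which was not called; the groups overlap in SOG1.

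Promoters of 2 of these genes are shown because they hold the palindrome that SOG1 is known to bind, CTT and AAG with 7 bases of any kind between them. It was searched in the 250 bases upstream of the annotated gene start, where it reads the same on both strands. These windows, from the RefSeq assembly TAIR10.1, lie at chr4:1049516-1049765 (plus strand) for PARP2 and chr3:10231568-10231817 (minus strand) for SMR7. They do not overlap an annotated exon, and are printed from 5′ to 3′ with the match in capitals:
PARP2: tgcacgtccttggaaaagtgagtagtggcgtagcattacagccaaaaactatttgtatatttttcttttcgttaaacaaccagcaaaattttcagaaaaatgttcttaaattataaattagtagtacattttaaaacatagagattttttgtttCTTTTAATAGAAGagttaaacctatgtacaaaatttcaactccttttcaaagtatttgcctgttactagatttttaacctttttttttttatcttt
SMR7: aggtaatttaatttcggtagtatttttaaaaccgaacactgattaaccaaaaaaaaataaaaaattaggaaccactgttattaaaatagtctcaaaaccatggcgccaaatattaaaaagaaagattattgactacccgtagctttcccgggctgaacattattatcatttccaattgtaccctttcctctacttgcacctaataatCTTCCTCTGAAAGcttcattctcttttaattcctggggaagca
The matches begin 96 bases before the gene start in PARP2 and 43 bases in SMR7. Of the 60 genes higher at 100 cGy, 8 (13.3%) held a match, of the 77 lower genes 4 (5.19%), and of all 18802 genes with a window 8.67%. In the shorter window of 150 bases the share was 10% of the higher genes and 5.24% of all genes. Of the 13 DNA damage response genes called, 3 held it, the 2 printed ones among them, so most of those called had no match in this window. A match is a description of letters and does not show binding.

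Outside the list, several other genes were higher at 100 cGy with both 10 cGy and mock low. TRFL10, of a family of Myb proteins that bind telomere repeats, had 10, 8.8 and 8.86 CPM at 100 cGy, against 3.41, 2.79 and 3.53 CPM at 10 cGy and 3.6, 4.75 and 3.55 CPM in mock plants (1.38, SE 0.12, limma adjusted p = 2.45e-08). AT2G45460, a protein with an FHA domain, had 29.3, 28.3 and 24.8 CPM at 100 cGy, against 10.5, 11.6 and 10.9 CPM at 10 cGy and 9.41, 9.89 and 8.78 CPM in mock plants. AT5G60250, a RING finger protein, had 4.89, 3.44 and 4.25 CPM at 100 cGy, against 0.751, 1.17 and 1.75 CPM at 10 cGy and 0.878, 1.02 and 1.19 CPM in mock plants. The log2 difference was 1.28 in AT2G45460 (limma adjusted p = 4.85e-09) and 1.48 in AT5G60250 (limma adjusted p = 3.78e-05). AT3G58270, a phospholipase-like protein, was higher by 0.82 and AT3G52115, annotated as gamma response 1, by 0.71. TIL1, the catalytic subunit of DNA polymerase epsilon, was of another kind: its libraries of 100 cGy (30, 26.6 and 30.4 CPM) overlapped mock (30.3, 29.8 and 28.2 CPM), and the 10 cGy libraries were lower (23.3, 23.2 and 20.7 CPM). The plasma membrane aquaporin gene PIP2A was below mock at both doses, with 1046.3, 1075.7 and 1029.2 CPM at 100 cGy, 831.6, 826.8 and 885.9 CPM at 10 cGy and 1404.3, 1388.0 and 1324.8 CPM in mock plants. Of the 6 fits without 1 library, the call was kept in 3 for AT3G52115, in 2 for TIL1 and in 4 for PIP2A. For TRFL10, AT2G45460, AT5G60250 and AT3G58270 it was kept in all 6.

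Heat shock factors and chaperones made up the list with the most members lower at 100 cGy. Of 33 listed heat shock genes 27 were tested, 8 were lower and 0 higher, with a median of -0.12 over the list. That is 29.6% lower, against 0.408% of all tested genes. This list, like the others, was chosen with earlier results of these data known, so its count is a description. The 8 were the heat shock factor genes HSFA2, HSFB2A and HSFB2B, the coactivator gene MBF1C, the disaggregase gene HSP101, the inducible cytosolic HSP90 gene HSP90.1, FES1A, whose product assists Hsp70, and ERDJ3A, a DnaJ protein. In all 8 the mock mean was nearer to 10 cGy than to 100 cGy: their median log2 difference from mock was -0.72 at 100 cGy and 0.05 at 10 cGy. The 19 tested members that were not called ran from -0.71 in DREB2A to 0.68 in HSP17.6II, so the members differed in direction.

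MBF1C had 4.12, 3.91 and 4.69 CPM at 100 cGy, against 9.18, 11.3 and 11.4 CPM at 10 cGy and 14.1, 7.75 and 10.1 CPM in mock plants (-1.23, SE 0.17, limma adjusted p = 8.66e-05). HSFB2B, a class B factor, had 8.73, 8.97 and 8.52 CPM at 100 cGy, against 15.8, 16.5 and 14.7 CPM at 10 cGy and 18.3, 13.5 and 13.5 CPM in mock plants (-0.81, SE 0.10, limma adjusted p = 1.16e-05). HSFA2 had 1.53, 1.38 and 1.55 CPM at 100 cGy, against 3.75, 9.04 and 5.82 CPM at 10 cGy and 8.81, 2.35 and 4.14 CPM in mock plants (-1.68, SE 0.32, limma adjusted p = 0.00408). The 100 cGy libraries of these genes were close together and below all others, whereas 10 cGy and mock were spread and overlapped. HSP101 had 11.5, 8.83 and 12.3 CPM at 100 cGy, against 14.1, 22 and 18.2 CPM at 10 cGy and 21.6, 16.4 and 17.7 CPM in mock plants (-0.70, limma adjusted p = 0.00561). The list count rested on single libraries: it was 3 without 10 cGy replicate 2, in which HSFA2, HSP90.1 and HSP101 were highest, and 5 without 100 cGy replicate 2. Without any 1 library MBF1C, HSFB2A and HSFB2B kept their calls.

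Several other chaperone genes were lower as well. AT3G09440, a cytosolic-type Hsp70, had 391.3, 331.3 and 375.9 CPM at 100 cGy, against 671.1, 914.4 and 787.8 CPM at 10 cGy and 675.0, 507.3 and 581.8 CPM in mock plants (-1.10, SE 0.11, limma adjusted p = 9.94e-08). HSC70-1, the abundant cognate Hsp70, had 2110.0, 1963.9 and 2084.6 CPM at 100 cGy, against 2652.9, 3070.6 and 2776.7 CPM at 10 cGy and 2471.1, 2291.2 and 2409.2 CPM in mock plants. In both genes the 100 cGy libraries were below all others and the mock mean lay between the doses, with 1 mock library of AT3G09440 inside the range of 10 cGy. The HSP90 genes HSP81-2 (-0.80) and HSP81-3 (-0.92), which are near-identical copies that can share reads, the DnaJ genes J2 (-0.46) and J3 (-0.32) and the mitochondrial MTHSC70-2 (-0.41) were also lower. By product name, a grouping made after the values were seen, 229 tested genes were heat shock proteins, DnaJ proteins or chaperones. Of these 13 were lower (5.68%, against 0.408% of all tested genes) and 1 was higher (CCS, a copper chaperone). The 13 include HSP101, HSP90.1 and ERDJ3A of the heat shock list. Most of the 229 were not called, and 103 were above and 126 below zero, with a median of -0.02. Of 15 genes of the unfolded protein response of the endoplasmic reticulum 0 were called, with 13 below zero and a median of -0.13. The heat shock element GAANNTTC, on either strand, was in the 250 bases upstream of 15.6% of the lower genes, 3.33% of the higher genes and 9.34% of all genes, and within 150 bases of 9.09% of the lower genes and 5.22% of all genes. Of the 8 heat shock genes called, 1 held it in the 250 bases (HSFA2), and 11 of the 12 lower genes with a match were outside the list.

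In 3 zinc transporter genes the 10 cGy libraries stood apart from both 100 cGy and mock. Of 20 listed genes of zinc deficiency 13 were tested, 3 were lower at 100 cGy than at 10 cGy and 0 were higher, with a median of -0.10. That is 23.1% lower, against 0.408% of all tested genes. IRT3 had 22.3, 20.3 and 22.3 CPM at 100 cGy, against 63.3, 70.5 and 66.2 CPM at 10 cGy and 17.4, 24.6 and 20.4 CPM in mock plants (-1.60, SE 0.17, limma adjusted p = 1.19e-06). ZIP5 had 3.26, 2.86 and 2.67 CPM at 100 cGy, against 8.97, 9.56 and 6.82 CPM at 10 cGy and 3.18, 3.01 and 3.16 CPM in mock plants (-1.37, SE 0.16, limma adjusted p = 2.36e-06). ZIP4 had 5.18, 6.01 and 5.61 CPM at 100 cGy, against 11.6, 12.6 and 11.1 CPM at 10 cGy and 5.48, 6.64 and 5.83 CPM in mock plants (-1.01, SE 0.18, limma adjusted p = 0.00213). All 3 encode importers of the ZIP family, and in all 3 the 100 cGy libraries overlapped mock while the 10 cGy libraries were above both. The factor genes BZIP19 (0.07) and BZIP23 (-0.02), whose products switch on such transporters in zinc shortage, and the vacuolar exporter gene MTP1 (0.05) were not called. Other genes of the ZIP family, ZIP1 (-0.25), ZIP6 (0.24) and ZIP11 (-0.10), were not called either. Of the 13 tested genes 5 lay above zero and 8 below. ZIP9, a further importer, averaged 0.0561 CPM at 100 cGy, 1.08 CPM at 10 cGy and 0.0418 CPM in mock plants and was not called (adjusted p = 0.237, limma). The 9 root markers, whose RHD6 was at 0, summed to 108.0 to 129.2 CPM at 100 cGy, 91.1 to 98.8 CPM at 10 cGy and 133.5 to 139.4 CPM in mock plants.

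The core of the zinc deficiency response element, TGTCGACA, to which BZIP19 and BZIP23 bind, was in the 250 upstream bases of 52 of 18802 genes (0.277%). It reads the same on both strands. Of the 77 lower genes 3 held it (3.9%): IRT3, ZIP4 and AT1G20380, a prolyl oligopeptidase family gene. The upstream window of IRT3, at chr1:22447300-22447549 on the minus strand of TAIR10.1, is shown with that core in capitals, 24 bases before the gene start:
IRT3: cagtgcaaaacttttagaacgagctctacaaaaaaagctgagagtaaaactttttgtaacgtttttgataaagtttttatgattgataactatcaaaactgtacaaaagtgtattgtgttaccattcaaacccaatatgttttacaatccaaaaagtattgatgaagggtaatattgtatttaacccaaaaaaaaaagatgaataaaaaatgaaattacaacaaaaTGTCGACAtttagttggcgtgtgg
In ZIP4 the core begins 39 bases before the gene start, and ZIP5 had no match in this window. AT1G20380 had 6.26, 7.06 and 6.45 CPM at 100 cGy, against 12.5, 10.1 and 10.3 CPM at 10 cGy and 6.33, 8.48 and 6.91 CPM in mock plants (-0.68, limma adjusted p = 0.0347). As in the 3 transporters 10 cGy was highest, but its call ended without any 1 of the 6 libraries.

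A pair of genes of copper superoxide dismutase was higher at 100 cGy, with 10 cGy lowest. CSD2, the chloroplast copper/zinc superoxide dismutase, had 389.7, 389.8 and 352.0 CPM at 100 cGy, against 265.8, 255.5 and 267.9 CPM at 10 cGy and 405.1, 392.1 and 396.9 CPM in mock plants (0.52, SE 0.10, limma adjusted p = 0.00443). CCS, the chaperone that inserts its copper, had 90.8, 90.2 and 85.9 CPM at 100 cGy, against 64.9, 67.6 and 68.8 CPM at 10 cGy and 98.6, 93.3 and 91.3 CPM in mock plants (0.40, limma adjusted p = 0.00817). In both genes the 10 cGy libraries lay below every other library. The cytosolic CSD1 averaged 166 CPM at 100 cGy, 122 CPM at 10 cGy and 166 CPM in mock plants and missed the threshold (0.45, adjusted p = 0.0678, limma). CSD3, a further copper/zinc dismutase, averaged 22.7 CPM at 100 cGy, 22.1 CPM at 10 cGy and 21.2 CPM in mock plants (0.04, adjusted p = 0.953, limma). The iron superoxide dismutase FSD1, which replaces CSD2 when copper is short, averaged 475 CPM at 100 cGy, 582 CPM at 10 cGy and 437 CPM in mock plants (-0.29, adjusted p = 0.158, limma). The copper regulator gene SPL7 (0.15) was not called. Of 14 tested genes of copper status CSD2 and CCS were the 2 called (14.3% higher, against 0.318% of all tested genes). The call of CCS ended without 100 cGy replicate 2 or 10 cGy replicate 1 (highest adjusted p = 0.0571, limma). Of 17 iron-status genes 0 were called, with a median of 0.11 and differences from -0.51 in NAS3 to 0.96 in BHLH39.

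**Figure D3:**
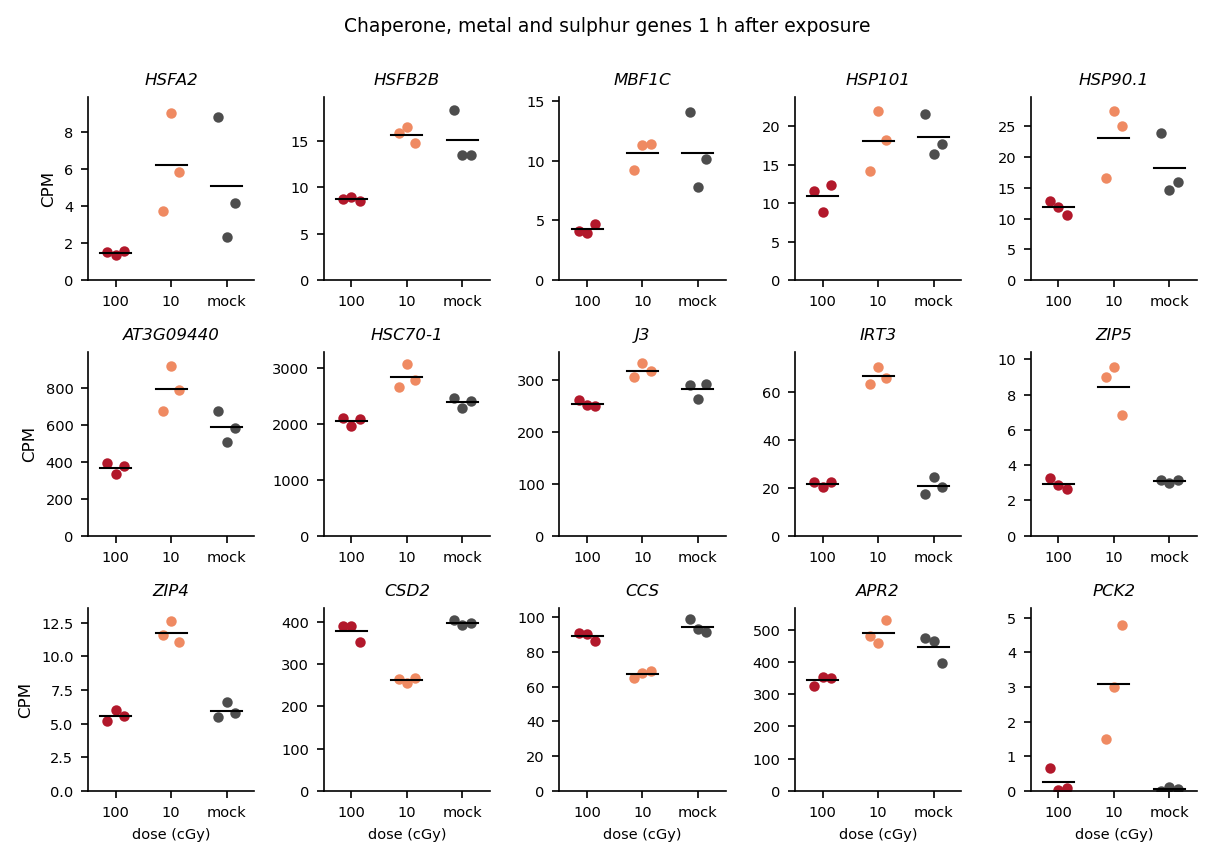
CPM of 15 genes in the 3 libraries of each group at 1 h, with 100 cGy in red at the left, 10 cGy in orange in the middle and mock in grey at the right, and a line at the group mean. In the chaperone genes and APR2 the 100 cGy libraries are lowest, in IRT3, ZIP5, ZIP4 and PCK2 the 10 cGy libraries are highest, and in CSD2 and CCS the 10 cGy libraries are lowest.

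Genes of sulphate reduction and sulphur shortage, a list made after the values were seen, had 4 of 14 tested members lower at 100 cGy. That is 28.6%, against 0.408% of all tested genes, in a list made to hold such genes. APR2, the main reductase of activated sulphate, had 325.7, 352.6 and 350.0 CPM at 100 cGy, against 479.4, 459.9 and 530.4 CPM at 10 cGy and 475.2, 464.3 and 396.2 CPM in mock plants (-0.51, SE 0.09, limma adjusted p = 0.00112). Its relative APR3 had 72.4, 67.2 and 65.6 CPM at 100 cGy, against 109.8, 94.2 and 112.0 CPM at 10 cGy and 120.5, 116.9 and 100.2 CPM in mock plants (-0.62, limma adjusted p = 0.00094). LSU2, which marks low sulphur, had 11.8, 9.63 and 10.8 CPM at 100 cGy, against 16.3, 13.5 and 19.8 CPM at 10 cGy and 27.1, 24.2 and 25.6 CPM in mock plants (-0.59, limma adjusted p = 0.00736). APR2 and APR3 at 10 cGy overlapped mock, while LSU2 followed the order of the doses in all 9 libraries. The call of LSU2 ended without 100 cGy replicate 2 or 10 cGy replicate 3. The third reductase gene APR1 (0.03) and the sulphurylase gene APS1 (0.07) were not called.

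Further genes lower at 100 cGy than at 10 cGy had mock lowest or near the floor. PCK2, a phosphoenolpyruvate carboxykinase, had 0.671, 0.0362 and 0.0967 CPM at 100 cGy, against 1.5, 3.01 and 4.8 CPM at 10 cGy and 0, 0.12 and 0.0702 CPM in mock plants (-2.21, SE 0.40, limma adjusted p = 0.00279). Its libraries outside 10 cGy, other than 100 cGy replicate 1, were at or near the floor of 3 counts. PCK2 passed the filter on low values through its 10 cGy libraries and 1 other only. RAV2, a transcription factor of the AP2 and B3 type, had 15.2, 11 and 12 CPM at 100 cGy, against 21.2, 25.7 and 20.3 CPM at 10 cGy and 5.18, 3.04 and 3.86 CPM in mock plants, so that both doses were above mock. The amylase gene BMY3 had 91.4, 78.8 and 96.7 CPM at 100 cGy, against 125.7, 145.8 and 154.6 CPM at 10 cGy and 59.5, 41 and 46.1 CPM in mock plants. The log2 differences between the doses were -0.80 in RAV2 and -0.67 in BMY3 (adjusted p = 0.0134 and 0.00726, limma), and both calls held without 3 of the 6 libraries only.

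Lists for ethylene, touch, jasmonate and the clock gave 2 calls between the doses. Of 19 ethylene genes and 15 ethylene response factors 0 were called: EBF2 had 58.3, 56.9 and 56.4 CPM at 100 cGy, 57.6, 57.2 and 59.1 CPM at 10 cGy and 39.8, 39.9 and 40 CPM in mock plants, and HRE1 (0.12), ERF5 (-0.16) and EIN3 (-0.10) were not called. A p above the threshold does not show that the doses act alike; for EBF2 the difference was -0.02 with an SE of 0.07. Of 19 touch, wound and early stress genes 0 were called, with a median of -0.23 and 14 below zero, and of 23 jasmonate genes 0, with a median of 0.17 and 19 above zero. Of 22 clock genes 2 were lower (9.09%, against 0.408% of all tested genes), the Myb gene RVE1 (-0.58) and the pseudo-response regulator gene PRR9 (-0.27). Their calls ended without 2 and 5 of the 6 libraries in turn. In the further lists (antioxidant, salicylate, abscisate, photosystem, flavonoid, DNA methylation, cold, starvation, cell wall, auxin and cytokinin) 0 genes were called.

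**Figure D4:**
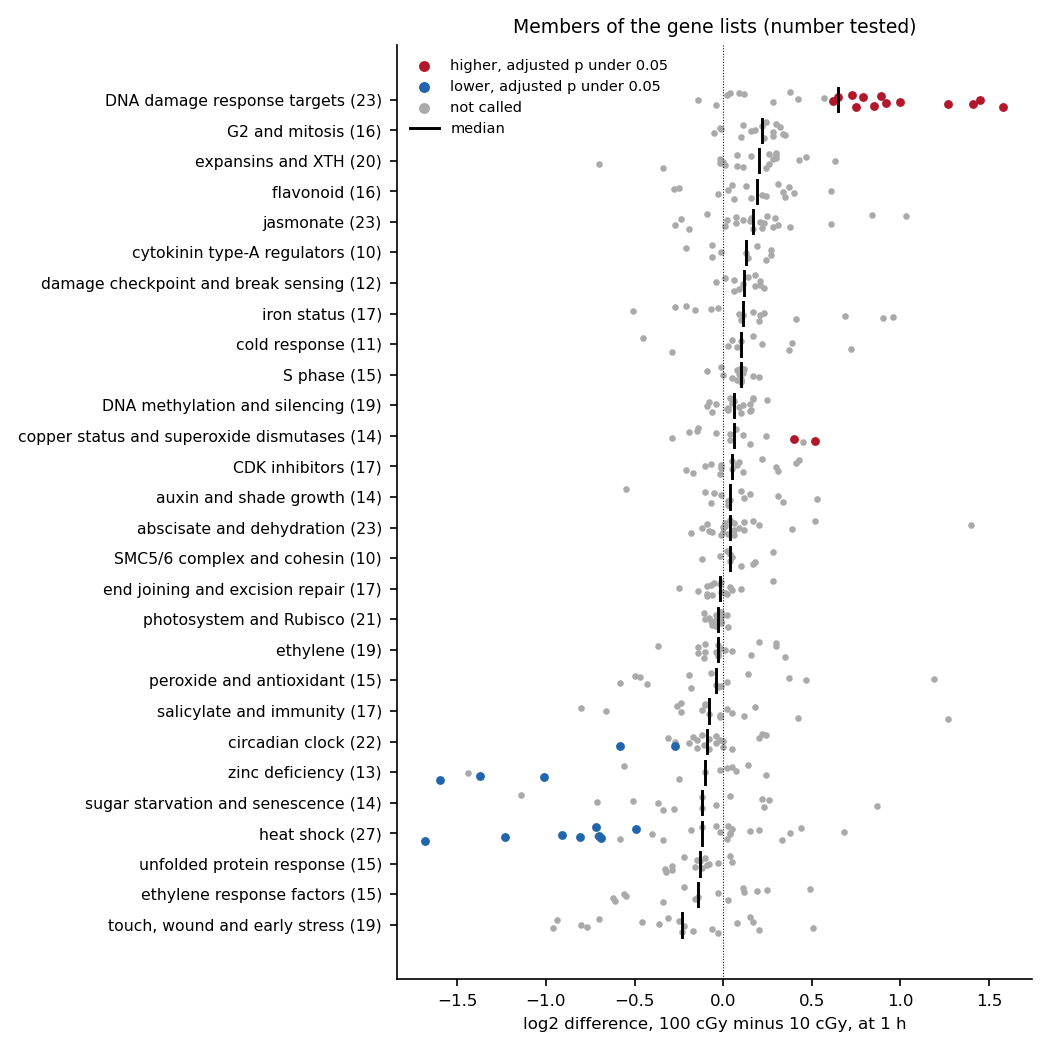
Each row is a gene list with its number of tested members, each point a member, and the horizontal axis its log2 difference at 1 h, 100 cGy minus 10 cGy; black bars are list medians. Members higher at 100 cGy (red) are 13 in the DNA damage response list and 2 in the copper list, and members lower (blue) are 8 in heat shock, 3 in zinc deficiency and 2 in the clock list.

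The position of mock differed between these groups of genes. Of the 60 genes higher at 100 cGy, mock lay below both doses in 13, between them in 25 (41.7%) and above both in 22. Of the 77 lower genes it lay below both in 22, between in 42 (54.5%) and above both in 13. Over all tested genes mock lay between in 18.4%, but that is not a like background. Called genes were picked for a gap between the doses (median size 0.43 and 0.62, against 0.08 over all genes), which leaves mock more room between them. Both comparisons with mock share the mock libraries, so their values are given side by side. The 13 DNA damage response genes had a median log2 difference from mock of 0.82 at 100 cGy and -0.13 at 10 cGy, and the 3 zinc transporter genes one of -0.08 at 100 cGy and 1.3 at 10 cGy. For the 2 copper genes these medians were -0.08 at 100 cGy and -0.54 at 10 cGy, and for the 4 sulphur genes -0.64 at 100 cGy and 0.02 at 10 cGy.

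At 3 h the differences were found again in some genes and turned round in others. The means of the 3 h groups did not enter the comparison at 1 h. Its scatter, however, was estimated over all 36 libraries, those of 3 h included, so the calls at the 2 times are not fully separate. Of the 60 genes higher at 1 h, 24 were higher and 2 lower at 3 h. Of the 77 genes lower at 1 h, 8 were lower and 8 higher at 3 h. Over all tested genes 11.7% were higher and 0.821% lower at 100 cGy than at 10 cGy at 3 h, and the median difference of all genes was 0.114. After rescaling of the libraries by median ratios, an alternative chosen after seeing the data, that median was -0.015, and 1.64% of all genes were higher and 3.24% lower. Of the 60 higher genes 13 were then higher and 5 lower, and of the 77 lower genes 15 were lower and 3 higher, so the split of the calls at 3 h into higher and lower depends on the scaling. The 10 cGy replicate 1 of 3 h stood apart, with 0.608% of its counts from chloroplast genes; without it, on the deposited scale, 18 of the 60 and 5 of the 77 were called in the same direction, against 6.67% higher and 0.461% lower over all genes. The 3 h share of higher genes among all genes is large, so the 24 genes are to be read with it. PARP2 had 18.1, 21.4 and 20.2 CPM at 100 cGy, against 7.34, 7.2 and 8.89 CPM at 10 cGy at 3 h (1.3, limma adjusted p = 3.59e-07). XRI1 had 11.3, 13.1 and 14.2 CPM at 100 cGy, against 6.31, 6.06 and 7.11 CPM at 10 cGy at 3 h (0.93, limma adjusted p = 7.97e-07). Neither gene's libraries overlapped between the doses at 3 h. After rescaling PARP2 (1.17) and XRI1 (0.80) were still called. Of the 13 DNA damage response genes 10 were called at 3 h, with a median of 0.59, and 6 after rescaling, with a median of 0.46. Of the 8 heat shock genes HSP101 (-0.53) and HSP90.1 (-0.57) were called at 3 h. Without that 10 cGy library the calls of GMI1 and HSP90.1 at 3 h ended (limma adjusted p = 0.0692 and 0.0537). At 24 h 0.143% of all genes were higher and 0.985% lower at 100 cGy, and at 72 h 0% were called in either direction. The 13 DNA damage response genes had medians of -0.01 at 24 h and 0.08 at 72 h. At 24 h XRI1 had 7.44, 6.59 and 6.82 CPM at 100 cGy and 8.1, 7.98 and 7.34 CPM at 10 cGy.

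The change of the dose difference between 1 h and 3 h was called in 3.52% of all genes, 664 in number, of which 591 (89%) were toward higher at 100 cGy. After rescaling by median ratios 293 were called, of which 129 (44%) were toward higher. For genes called at 1 h, the change subtracts the same difference by which they were called, so a change against it is favoured. The difference became smaller in PARP1 (a change of -0.45), TSO2 (-0.57) and XRI1 (-0.48), and for PARP2 the change of -0.28 was not called (adjusted p = 0.365, limma). In the zinc genes it moved toward zero by 1.12 in IRT3 and 1.28 in ZIP5. At 3 h ZIP5 had 40.8, 28.5 and 39.2 CPM at 100 cGy and 33.9, 33.9 and 48 CPM at 10 cGy, groups that overlap. IRT3 had 49.2, 37.7 and 57.1 CPM at 100 cGy and 66.8, 54.5 and 79.8 CPM at 10 cGy at 3 h, again with overlap (-0.48, adjusted p = 0.0656, limma; -0.62 and 0.0375 after rescaling). AT3G09440, lower at 1 h, stood at 708.6, 634.4 and 608.4 CPM at 100 cGy and 614.1, 648.6 and 661.8 CPM at 10 cGy at 3 h, a difference of 0.02. RVE1 changed sides, lower at 1 h (-0.58) and higher at 3 h (0.87, adjusted p = 9.83e-05, limma), and so did PRR9 (-0.27 and 0.41). The 1 h call of PRR9 was kept in 1 of the 6 fits without 1 library. On the deposited scale 12 of 22 clock genes were called higher at 3 h and 0 lower, against 11.7% of all genes higher. Being higher at 3 h was thus not particular to RVE1 and PRR9.

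**Figure D5:**
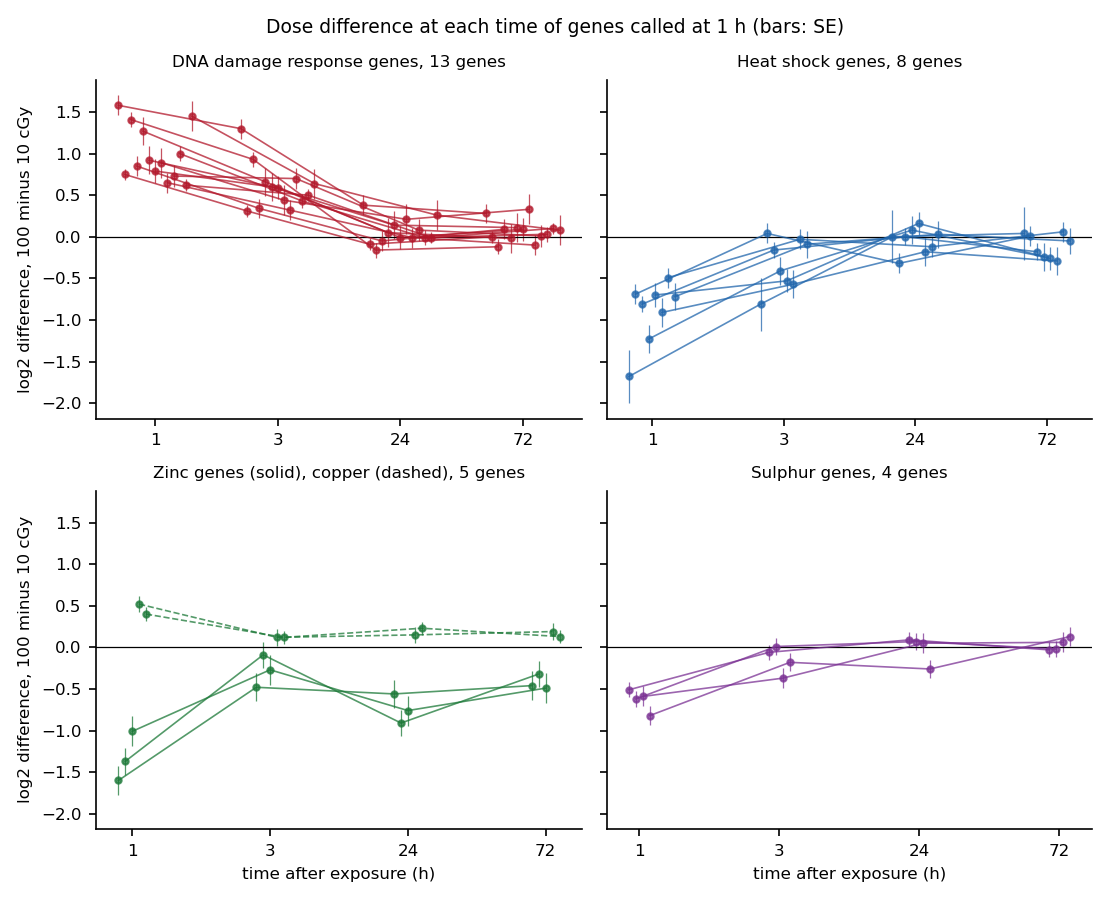
Log2 difference, 100 cGy minus 10 cGy, at 1, 3, 24 and 72 h of genes called at 1 h, with bars for the SE from limma (n = 3 libraries per group) and points shifted sideways for legibility. The 13 DNA damage response genes and the 8 heat shock genes had medians of 0.89 and -0.76 at 1 h and of -0.01 and 0.00 at 24 h, while the 3 zinc genes (solid lines) lie below zero at all 4 times.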

How the data were processed

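Poly(A) RNA of whole rosettes was sequenced in 36 libraries of 12 groups with 3 libraries each, per the labels. The deposited table gives CPM per gene; the submitters' processing notes name the genome build TAIR10 and Trimmomatic 0.32, STAR 2.5.2b and RSEM 1.2.28, without their roles. The authors' other table gives the same values as the natural log after adding 1 (largest departure 4.1e-09) and served as a check. Whether counting used strand is not given in the sources used here. In each library 88.6% to 90.5% of the values above zero were within 0.02 of a whole number of steps. Because the rest were not, no count test was run.

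Genes with at least 1 CPM in at least 3 libraries were fitted as log2(CPM + 0.5) with limma 3.58.1 in R 4.3.3 on 12 group means with 24 residual degrees of freedom and an intensity trend. P-values were two-sided and adjusted (Benjamini-Hochberg) over 18875 genes, and called means an adjusted p under 0.05. Before use, the script was run on simulated data, where its mean estimates lay close to the changes put in. The share of those changes that it called is not given here. Gene names and sequences came from the RefSeq assembly TAIR10.1 (18802 of 18875 genes matched). Of 552 entries in 35 gene lists 499 were tested. The members and lists were chosen with earlier results of these data known. Genes named were the 12 largest differences in each direction, up to 6 called members per list, a fixed set and genes called at both 1 h and 3 h; others were chosen after their values were seen. The labels do not say whether replicate numbers pair the libraries, and no block was used in the main fit. Alternatives were other offsets, filters, scalings, sets of libraries, variance priors, library weights, a replicate block, and leaving out each library. Values of some genes counted in the totals are not reported here.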

Additional observations from a re-analysis of the deposited data

Results flagged for a closer look

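The genes below were picked out because their dose difference, 100 cGy minus 10 cGy, was not the same at 3 h as at 1 h, tested by the interaction term in limma (adjusted p under 0.05). Each value is the log2 difference at 3 h minus that at 1 h. The genes had also been called at 1 h, and the change subtracts that same 1 h difference. A change against the direction at 1 h is therefore favoured by the choice of genes. Among genes higher at 100 cGy at 1 h, the difference became smaller in PARP1 (-0.45), AT2G45460 (-0.60), TSO2 (-0.57) and XRI1 (-0.48). It changed sides in the aquaporin gene PIP2A (-0.71) and the ion channel gene CNGC4 (-0.58), which were lower at 100 cGy at 3 h. Of the 6 fits without 1 library of 1 h, the 1 h call was kept in 4 for PIP2A and in 1 for CNGC4. For PARP1, AT2G45460, TSO2 and XRI1 it was kept in all 6.

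Among genes lower at 100 cGy at 1 h, the change was toward higher values, as it was in 591 (89%) of the 664 genes called over all tested genes. The direction is thus not particular to the genes named here. The change was 1.28 in ZIP5, 1.12 in IRT3, 1.12 in AT3G09440, 0.64 in HSFB2B and 0.73 in HSFB2A. In the clock genes it was 1.45 in RVE1 and 0.68 in PRR9. In the weakly expressed genes PCK2 and PP2-B13 it was 2.49 and 1.39. It was 1.93 in AT5G14470, 1.3 in AT1G72910, 1.25 in EDA39, 1.04 in AT1G14200, 0.86 in AT1G58602, 0.76 in CRK29, 0.57 in GNC and 0.32 in AT2G35390. Of the 6 fits without 1 library of 1 h, the 1 h call was kept in 0 for AT1G72910 and AT2G35390. It was kept in 1 for PRR9, AT5G14470, CRK29 and GNC, in 2 for EDA39, in 4 for RVE1 and in 5 for AT1G58602. For the other genes named in this paragraph it was kept in all 6. The part of the 10 cGy replicate 1 of 3 h, which stood apart, in these changes was tested for the count of genes only: without it 380 genes were called in place of 664. After median-ratio rescaling the changes of HSFB2A (0.62, adjusted p = 0.0521), AT5G14470 (1.93, adjusted p = 0.0667) and AT2G35390 (0.20, adjusted p = 0.161) were not called by limma.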

How the results depend on the processing

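The count of 137 genes was within 1.5 times under other offsets, filters, scaling and variance priors. It was 80 (36 higher, 44 lower) with only the 9 libraries of 1 h in the fit, 61 (26 and 35) with only the 6 irradiated ones, 296 (163 and 133) with library quality weights, and 70 to 121 without 1 library. The 664 genes whose difference changed between 1 h and 3 h (89% toward higher at 100 cGy) were 293 after median-ratio rescaling (44%), 2451 with quality weights, 228 to 532 without 1 library of 1 h and 380 without 10 cGy replicate 1 of 3 h, an alternative chosen after seeing the data. Of the DNA damage response list, 6 members were higher among genes with a mean CPM of at least 5, a filter that tests fewer genes, and 11 to 13 without 1 library. Of the heat shock list, 3 were lower with the 9 libraries, 3 with the 6, and 3 to 8 without 1 library. Of the zinc list, 5 were lower with the 9 libraries. The heat shock element was upstream of 9.09% of the lower genes within 150 bases, a shorter window. For the other moved counts the cause was not tested. With the replicate block 115 genes were called, 107 of them shared with the 137, and 475 for the change between times. Same-numbered libraries of 100 cGy and 10 cGy at 1 h, as deviations from their group means, had correlations of -0.21, 0.09 and 0.17. With 3 libraries per group these values cannot settle whether the numbers pair the libraries. Of 68 named genes, 52 of them tested with a mean CPM of at least 5, none reversed under 17 alternatives; 32 were weaker with only the 6 irradiated libraries, 29 with the 9, and up to 22 without 1 library; and 32 of the 60 called kept their call without any 1 library. At a floor of 0.0902 to 0.113 CPM, differences in genes such as SMR5 were not detectable.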

Other observations

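The following single genes higher at 100 cGy than at 10 cGy were named after their values were seen and stand for no pathway. In the gene lists, 0 of 14 tested genes of auxin and shade growth, 0 of 10 cytokinin regulators and 0 of 20 expansin and XTH genes were called (limma). The auxin list does not hold ARF19 and IAA14, which are given below, so its count does not speak for them. TCP14, a transcription factor of cell proliferation, had 25.8, 27.7 and 25.8 CPM at 100 cGy, against 17.8, 18.9 and 20.4 CPM at 10 cGy and 24.6, 25.1 and 25.8 CPM in mock plants (0.46, limma adjusted p = 0.000285). DWF4, an enzyme of brassinosteroid synthesis, had 9.87, 11.9 and 11.2 CPM at 100 cGy, against 7.61, 6.33 and 9.45 CPM at 10 cGy and 9.38, 10.5 and 10.3 CPM in mock plants (0.48, limma adjusted p = 0.0192). In both the 100 cGy libraries overlapped mock, and the 10 cGy libraries were below every other library in TCP14 and overlapped mock in DWF4. The homeobox gene KNAT3 was below mock at both doses, with 42, 44.3 and 37.5 CPM at 100 cGy, 32.9, 33 and 33.5 CPM at 10 cGy and 50.3, 55.4 and 52 CPM in mock plants (0.31, limma adjusted p = 0.0178). The auxin signalling genes ARF19 and IAA14 were higher by 0.38 and 0.40 (limma adjusted p = 0.0397 and 0.0333). Of the 6 fits without 1 library the call was kept in 1 for ARF19 and in 2 each for DWF4, KNAT3 and IAA14.

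Among genes lower at 100 cGy, LBD37, a repressor of nitrogen-responsive genes, had 18.7, 18.8 and 19.6 CPM at 100 cGy, against 26.5, 29.6 and 30 CPM at 10 cGy and 28.4, 22.9 and 23.3 CPM in mock plants (-0.58, limma adjusted p = 2.84e-05). FRO7, the ferric reductase of chloroplasts, had 96.6, 85 and 92.7 CPM at 100 cGy, against 125.0, 134.9 and 130.3 CPM at 10 cGy and 131.3, 120.3 and 120.6 CPM in mock plants (-0.51, limma adjusted p = 0.00681). SR45a, a splicing-related RNA-binding protein, had 33.8, 32.7 and 37.4 CPM at 100 cGy, against 52.8, 60.5 and 56 CPM at 10 cGy and 60.1, 49.9 and 52 CPM in mock plants (-0.70, limma adjusted p = 0.00127). In these 3 genes the 100 cGy libraries were below every library of 10 cGy and mock. EPR1, a Myb gene related to the clock, had 54.3, 42.1 and 46.6 CPM at 100 cGy, against 72.2, 78 and 91.4 CPM at 10 cGy and 56.6, 44 and 41.2 CPM in mock plants (-0.75, limma adjusted p = 0.00186), with the 10 cGy libraries above all others.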
